A study of Mus musculus with 12 samples.

Results

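The genes described are the alcohol dehydrogenases (Adh), aldehyde dehydrogenases (Aldh) and aldo-keto reductases (Akr) of mouse liver. A gene was a member if its single symbol in the array platform's annotation was Adh, Aldh or Akr followed by a digit. This gave 42 of the 18193 genes with 1 symbol, of which 7 were Adh, 20 Aldh and 15 Akr. Where a gene had several probe sets, the one brightest on average across the 12 arrays was used. A gene was tested if it was above a log2 value of 5.0, the 40th percentile of all values, on 3 or more arrays. Of the 42 members, 38 passed (6 Adh, 17 Aldh and 15 Akr) among 13788 genes tested. The 4 that did not pass were Adh6a, Aldh1a2, Aldh1l2 and Aldh3a1, whose values stayed between 3.46 and 4.85 on all 12 arrays.

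Liver RNA came from male C57BL6J mice aged 30 weeks, with 3 mice in each of 4 groups, and was measured on Affymetrix expression arrays. Control chow mice had no antibiotic and a normal chow with 13.5% of its energy from fat, and penicillin chow mice had the same chow with low-dose penicillin at 6.7 mg/L in the water they drank. Control high-fat mice had no antibiotic and moved at week 17 from that chow to a diet with 45% of its energy from fat. Penicillin high-fat mice had both penicillin and that change of diet. No group carried an engineered allele in the labels, and every high-fat mouse had been raised on chow first. The labels call the 3 mice of a group biological replicates.

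Alcohol dehydrogenases oxidise alcohols, including ethanol and retinol, to aldehydes, and aldehyde dehydrogenases oxidise aldehydes to acids. Their substrates include acetaldehyde, retinal, the fatty aldehydes of lipid turnover and the semialdehydes of amino acid breakdown. Aldo-keto reductases mostly run the other way, reducing aldehydes, sugars and ketosteroids with NADPH. The liver holds high levels of many of these enzymes, which clear dietary and endogenous alcohols and aldehydes and take part in steroid and bile acid metabolism. Several family members lie side by side in the genome. In RefSeq's GRCm38.p6 annotation the 7 Adh members, 6 coding genes and 1 pseudogene, were consecutive on chromosome 3, and 9 Akr members (8 of the Akr1c kind and Akr1e1) were consecutive on chromosome 13. Neighbours in such a cluster have similar sequences, so a probe set can also bind a relative's RNA, and the values of single cluster members are uncertain to that extent.

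The arrays were compared before the members were read. The 10 hepatocyte marker genes all passed the filter, and their mean log2 level lay between 13.90 and 14.10 on every array. The mean signal of the 3 control probe sets for 18S ribosomal RNA was 11.8 on penicillin chow 2, penicillin chow 3 and penicillin high-fat 2, and 12.7 to 13.9 on the other arrays. Penicillin chow 1 had a mean acute-phase list level of 12.24 against 10.85 to 11.67 elsewhere, and a neutrophil marker level of 7.19 against 5.22 to 6.14. The values that follow are log2 expression levels or differences between group means on that scale, where a difference of 1 is a factor of 2. Differences were tested with limma over the 13788 genes, with p-values adjusted by the Benjamini-Hochberg method over those genes and a threshold of 0.05.

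Diet gave the only calls among the members, and they were few. With both treatments averaged, Aldh3a2, Akr1c20 and Akr1b10 rose on the high-fat diet, and Aldh1l1 and the pseudogene Adh6-ps1 fell. These were 3 of 38 higher (7.89%) and 2 of 38 lower (5.26%), where over all genes tested 9.63% were called higher and 4.85% lower. The members' shares were thus near the background. At an unadjusted p under 0.05 there were 8 of 38 (21.1%), against 30.1% of all genes. The members' median difference was -0.02, and the median over all genes was -0.01.

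Aldh3a2 encodes fatty aldehyde dehydrogenase, a membrane enzyme that oxidises long-chain aliphatic aldehydes to fatty acids. Its values were 10.67, 10.40 and 10.61 in control chow mice and 10.37, 10.76 and 10.77 in penicillin chow mice. On the high-fat diet they were 11.07, 11.02 and 10.79 in control mice and 11.61, 11.31 and 11.65 in penicillin mice. All 6 high-fat arrays lay above all 6 chow arrays, and the 3 penicillin high-fat arrays were the highest of all. The averaged diet difference was 0.65 ± 0.09 (SE), with an adjusted p of 0.00162. Within penicillin mice it was 0.89 ± 0.13 (SE, adjusted p 0.00283). Within control mice the difference of 0.40 ± 0.13 missed the threshold (adjusted p 0.175). Aldh3a2 passed the threshold for both the averaged and the penicillin-mouse comparison however 1 of the 12 arrays was left out, with differences of 0.58 to 0.70 averaged and 0.76 to 1.00 in penicillin mice.

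Aldh1l1 encodes formyltetrahydrofolate dehydrogenase, a folate enzyme that releases a one-carbon unit as carbon dioxide. Its values were 13.53, 13.45 and 13.29 in control chow mice and 13.17, 13.42 and 13.26 in penicillin chow mice. They were 13.02, 13.06 and 12.98 in control high-fat mice and 12.67, 13.05 and 12.60 in penicillin high-fat mice. Every high-fat array lay below every chow array. The averaged diet difference was -0.45 ± 0.08 (SE, adjusted p 0.00462), and in penicillin mice it was -0.51 ± 0.12 (adjusted p 0.0211). In control mice it was -0.40 ± 0.12 and missed the threshold (adjusted p 0.124). A dimmer probe set for Aldh1l1, with values of 6.23 to 7.37, gave -0.16 ± 0.19 for the averaged diet difference (adjusted p 0.627 over all probe sets that passed the filter). The call therefore rests on the brighter probe set. In penicillin mice it was also lost in 4 of the 12 fits that left out 1 array, those without penicillin chow 2 or 3 or penicillin high-fat 1 or 3, where the difference lay between -0.65 and -0.42 over all 12 fits. A fit of the penicillin arrays alone lost it too.

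The stretches before the starts of these 2 genes, and of Akr1b10, are shown because these are the members called for diet that RefSeq's GRCm38.p6 promoter table holds. Each is the 250 bases that end just before the annotated start, 5′ to 3′ on the gene's own strand, at chr11:61267187-61267436 (minus strand) for Aldh3a2, chr6:90550543-90550792 (plus strand) for Aldh1l1 and chr6:34383997-34384246 (plus strand) for Akr1b10. Capitals mark a match to one of the 3 motifs searched.
Aldh3a2: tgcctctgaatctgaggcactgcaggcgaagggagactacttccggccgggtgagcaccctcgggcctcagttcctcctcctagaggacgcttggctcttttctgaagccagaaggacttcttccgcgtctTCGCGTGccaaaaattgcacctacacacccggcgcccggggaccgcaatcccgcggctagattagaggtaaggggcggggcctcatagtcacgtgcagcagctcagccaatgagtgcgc
Aldh1l1: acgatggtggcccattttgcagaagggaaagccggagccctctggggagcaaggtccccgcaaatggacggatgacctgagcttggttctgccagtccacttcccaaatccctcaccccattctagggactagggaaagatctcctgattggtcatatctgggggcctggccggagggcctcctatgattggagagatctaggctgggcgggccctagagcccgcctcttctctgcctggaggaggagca
Akr1b10: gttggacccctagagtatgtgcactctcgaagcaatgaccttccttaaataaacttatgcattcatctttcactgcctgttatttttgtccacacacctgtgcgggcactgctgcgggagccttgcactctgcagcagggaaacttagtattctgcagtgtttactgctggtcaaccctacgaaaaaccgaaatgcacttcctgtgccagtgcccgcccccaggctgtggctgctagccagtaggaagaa

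GC content was 61.2% in the Aldh3a2 stretch, 59.6% in the Aldh1l1 stretch and 50.8% in the Akr1b10 stretch. Its median over the 250 bases before the start of all promoters was 52.4%. The motifs were searched on both strands, by exact letters, in windows of 250 bases before and 50 after each start. They were the antioxidant response element core (TGACNNNGC), the xenobiotic response element core (TNGCGTG) and a STAT site (TTCNNNGAA). The match in Aldh3a2 was to the xenobiotic response element core and began 119 bases before the start. That core was in 5.07% of all 32851 promoters and in 4 of the 36 promoter windows of 33 members (11.1%), the others being Aldh9a1, Adh7 and Aldh18a1. The antioxidant response element core was in 12.4% of all promoters and 5 of the 36 member windows (13.9%). The STAT site was in 8.30% of all promoters and also in 5 of the 36 (13.9%). A match is a description of these letters and says nothing of binding in these livers.

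Akr1c20, an aldo-keto reductase of the chromosome 13 cluster, was the other member that rose in both the averaged and the penicillin-mouse comparison. Its values were 11.92, 11.72 and 11.72 in control chow mice and 11.36, 11.67 and 11.60 in penicillin chow mice. They were 11.95, 11.88 and 11.82 in control high-fat mice and 12.02, 12.11 and 11.92 in penicillin high-fat mice. The penicillin groups did not overlap, while the control groups did. The diet difference was 0.29 ± 0.07 averaged (adjusted p 0.0169) and 0.48 ± 0.10 in penicillin mice (adjusted p 0.0118). In control mice it was 0.10 (adjusted p 0.686). A fit of the penicillin arrays alone lost the call in penicillin mice, as it did for Aldh1l1.

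Akr1b10 encodes an aldose reductase-like enzyme that reduces aldehydes and retinal. It was read near the lower end of the tested range, at 5.80, 5.67 and 5.71 in control chow mice and 5.64, 5.71 and 5.75 in penicillin chow mice. It was at 6.05, 5.89 and 6.31 in control high-fat mice and at 6.10, 5.88 and 5.81 in penicillin high-fat mice. Every high-fat array was above every chow array. The averaged diet difference was 0.29 ± 0.08 (SE, adjusted p 0.0263). The call was lost in 4 of the 12 fits that left out 1 array, those without control chow 2 or 3, control high-fat 1 or penicillin high-fat 1, with differences of 0.24 to 0.34 over the 12 fits. Neither single diet comparison passed, with 0.36 ± 0.11 in control mice (adjusted p 0.141) and 0.23 in penicillin mice (adjusted p 0.221). The other Akr1b10 probe sets were below the filter on every array, with group means of 4.06 to 4.39 and 3.71 to 3.99. Their means were lower on the high-fat diet in both treatments. The Akr1b10 call therefore rests on its brightest probe set.

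Adh6-ps1, annotated as a transcribed pseudogene among the Adh genes of chromosome 3, fell the most of the members. Its values were 8.79, 7.88 and 8.29 in control chow mice and 7.98, 8.18 and 8.53 in penicillin chow mice. They were 7.89, 8.17 and 7.66 in control high-fat mice and 6.67, 7.02 and 7.16 in penicillin high-fat mice. The 3 penicillin high-fat arrays lay below the other 9, and the control high-fat values overlapped those on chow. The diet difference was -0.85 ± 0.16 averaged (adjusted p 0.00565) and -1.28 ± 0.22 in penicillin mice (adjusted p 0.00622). In control mice it was -0.41 (adjusted p 0.415). Both calls were lost without the 3 arrays of low 18S signal, where the differences were -0.74 averaged (adjusted p 0.0536) and -1.07 in penicillin mice (adjusted p 0.105). That fit leaves penicillin chow 1 as the only array of its group, and it is assumed to vary like the other groups. Akr1b10 also missed the threshold there (0.33, adjusted p 0.0789).

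**Figure D1:**
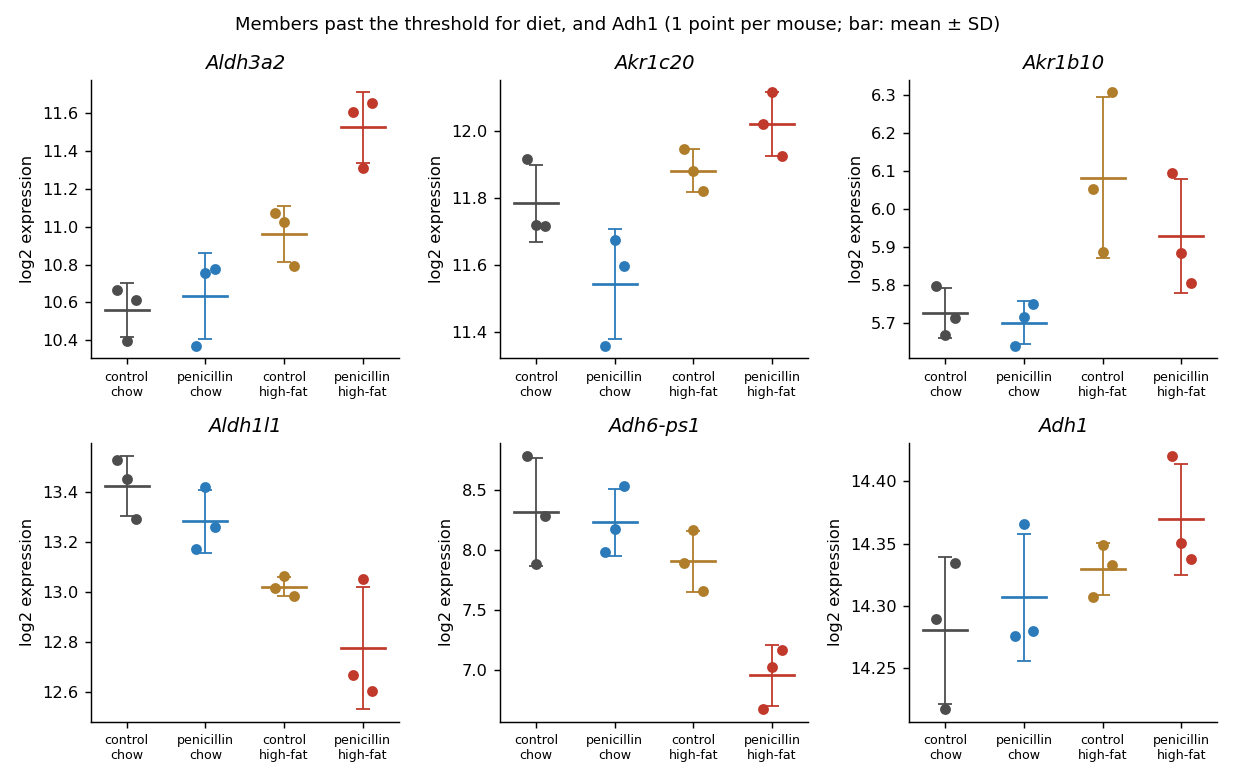
Log2 expression of Aldh3a2, Akr1c20, Akr1b10, Aldh1l1, Adh6-ps1 and, for comparison, Adh1 in the 4 groups, with 1 point per mouse and bars for the group mean ± SD (n = 3). Each panel has its own vertical scale. The Aldh3a2 points on the high-fat diet (10.79 to 11.65) sit above all chow points (10.37 to 10.77), while Adh1 stays between 14.22 and 14.42 in every group.

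The alcohol dehydrogenases that make protein showed no call for diet. Adh1, the class I enzyme that handles most ethanol and also oxidises retinol, read 14.29, 14.22 and 14.33 in control chow mice and 14.28, 14.37 and 14.28 in penicillin chow mice. It read 14.31, 14.35 and 14.33 in control high-fat mice and 14.42, 14.35 and 14.34 in penicillin high-fat mice, so that the groups overlapped. Its averaged diet difference was 0.06, with a 95% interval of -0.04 to 0.16. Adh5, which clears formaldehyde bound to glutathione, differed by -0.04 (interval -0.15 to 0.07) and Adh7, known mainly from stomach epithelium, by -0.06 (interval -0.21 to 0.08). Adh4 differed by 0.03 (interval -0.30 to 0.35), a wider interval, with 10.70 on penicillin chow 1 and 11.27 to 11.76 on the other 11 arrays. Adh6b, near the filter, had group means of 5.15 ± 0.09 in control chow mice and 4.94 ± 0.05 in control high-fat mice (SD, n = 3), and its difference of -0.21 ± 0.08 did not pass (adjusted p 0.253). Along the chromosome 3 cluster the call was thus at Adh6-ps1, while its neighbours Adh6b and Adh4 were not called.

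**Figure D2:**
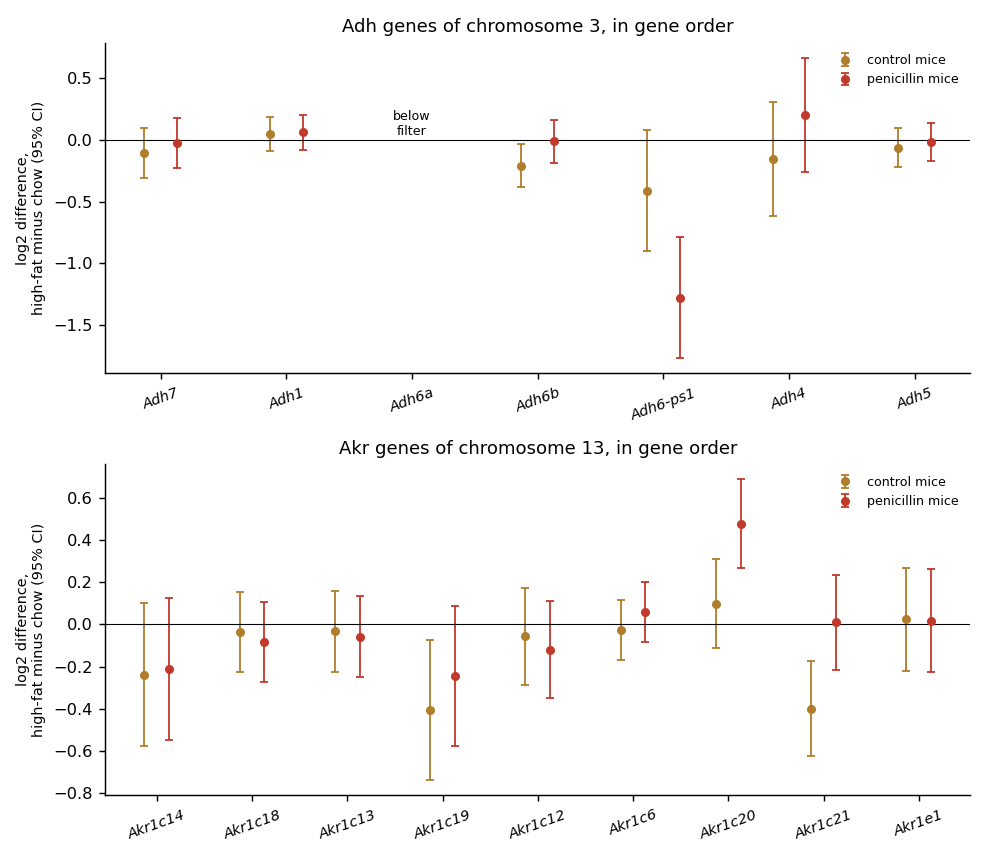
Log2 difference between high-fat and chow (points, with 95% confidence intervals) for the neighbouring Adh genes of chromosome 3 and Akr genes of chromosome 13, in gene order, in control and in penicillin mice. Adh6-ps1 in penicillin mice (-1.28) and Akr1c20 in penicillin mice (0.48) are the points past the threshold.

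Among the enzymes that act on retinal and acetaldehyde, none was called for diet. Aldh1a1, which turns retinal into retinoic acid in the cytosol, read 14.20, 14.16 and 14.22 in control chow mice and 14.07, 14.16 and 14.07 in penicillin chow mice. It read 14.09, 14.03 and 14.05 in control high-fat mice and 14.17, 14.19 and 14.20 in penicillin high-fat mice. The diet difference was -0.14 in control mice (adjusted p 0.323) and 0.08 in penicillin mice (adjusted p 0.426), and neither passed the threshold. Aldh1a7, its neighbour on chromosome 19 and a close relative, differed by -0.24 in control mice and 0.14 in penicillin mice, with adjusted p of 0.353 and 0.482. Aldh2, the mitochondrial enzyme that clears acetaldehyde, had the smallest range of the members, 0.119 over the 12 arrays. Its averaged diet difference was 0.03 (interval -0.06 to 0.13). Both values are those of the brightest of its 5 probe sets, and a dimmer one was called for averaged diet (0.25). Aldh1b1, a mitochondrial relative of Aldh2, was far more variable, with a range of 1.26 and an averaged difference of 0.26 (interval -0.10 to 0.61). Aldh1a3, which makes retinoic acid in other tissues, lay near the filter, with group means of 5.27 to 5.34.

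Enzymes of amino acid and carnitine metabolism gave no call either. Aldh6a1 of valine breakdown, Aldh9a1 of carnitine synthesis and Aldh8a1 had group means that spanned 12.63 to 12.69, 12.96 to 13.06 and 12.62 to 12.72. Aldh7a1 of lysine breakdown spanned 12.68 to 12.81. Aldh4a1 of proline breakdown and Aldh5a1, the succinic semialdehyde dehydrogenase, spanned 9.01 to 9.21 and 9.52 to 9.74. Aldh16a1 spanned 9.60 to 9.78, and Aldh18a1, which makes the proline precursor, 4.90 to 5.08, close to the filter. Aldh3b1, of the Aldh3 family like Aldh3a2, read 6.28, 6.36 and 6.46 in control chow mice and 6.38, 6.39 and 6.20 in penicillin chow mice. It read 6.46, 6.42 and 6.38 in control high-fat mice and 6.52, 6.73 and 6.51 in penicillin high-fat mice. In penicillin mice the diet difference of 0.26 ± 0.09 missed the threshold (adjusted p 0.0825). Its relative Aldh3b2 had group means of 5.58 to 5.83.

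Of the 15 Akr members, 13 gave no call for diet averaged over treatments. Akr1c6, a reductase of sex steroids, read 14.08, 14.03 and 14.02 in control chow mice and 13.82, 13.98 and 13.97 in penicillin chow mice. It read 14.02, 14.04 and 13.99 in control high-fat mice and 13.96, 13.98 and 14.00 in penicillin high-fat mice, with an averaged diet difference of 0.02 (interval -0.09 to 0.12). Akr1c21, another steroid reductase of the cluster, was read close to the filter. Its values were 5.70, 5.47 and 5.69 in control chow mice and 5.19, 5.42 and 5.51 in penicillin chow mice, then 5.10, 5.36 and 5.20 in control high-fat mice and 5.31, 5.40 and 5.43 in penicillin high-fat mice. In control mice the diet difference of -0.40 ± 0.10 missed the threshold (adjusted p 0.0923). Akr1c19 had a difference of -0.33 ± 0.11 averaged over treatments (adjusted p 0.0623). Without penicillin chow 1, Akr1c19 and Akr1c21 passed for the averaged diet comparison, which then had 7 members called in place of 5. All genes called for it were 2077 in that fit and 1997 with every array.

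The other Akr members are given by their group means. Akr1c14, the hepatic 3α-hydroxysteroid reductase, had group means of 12.33 to 12.56, and Akr1c12 and Akr1c13 had 10.88 to 11.06 and 11.28 to 11.46. Akr1c18, which inactivates progesterone, had 6.56 to 6.66. Akr1d1, which reduces the double bond of bile acid precursors, had 10.59 to 10.85, and its averaged diet difference was 0.03 (interval -0.18 to 0.23). Akr1a1, the general aldehyde reductase, had 13.62 to 13.79, Akr7a5 had 12.38 to 12.46 and Akr1e1 had 9.47 to 9.59. Akr1b8, next to Akr1b10 on chromosome 6, had 6.36 to 6.66, and Akr1cl had 5.39 to 5.53. Of the 33 members not called for averaged diet, 31 had a 95% interval that stayed within 0.5 of zero, and the widest bound was 0.61.

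**Figure D3:**
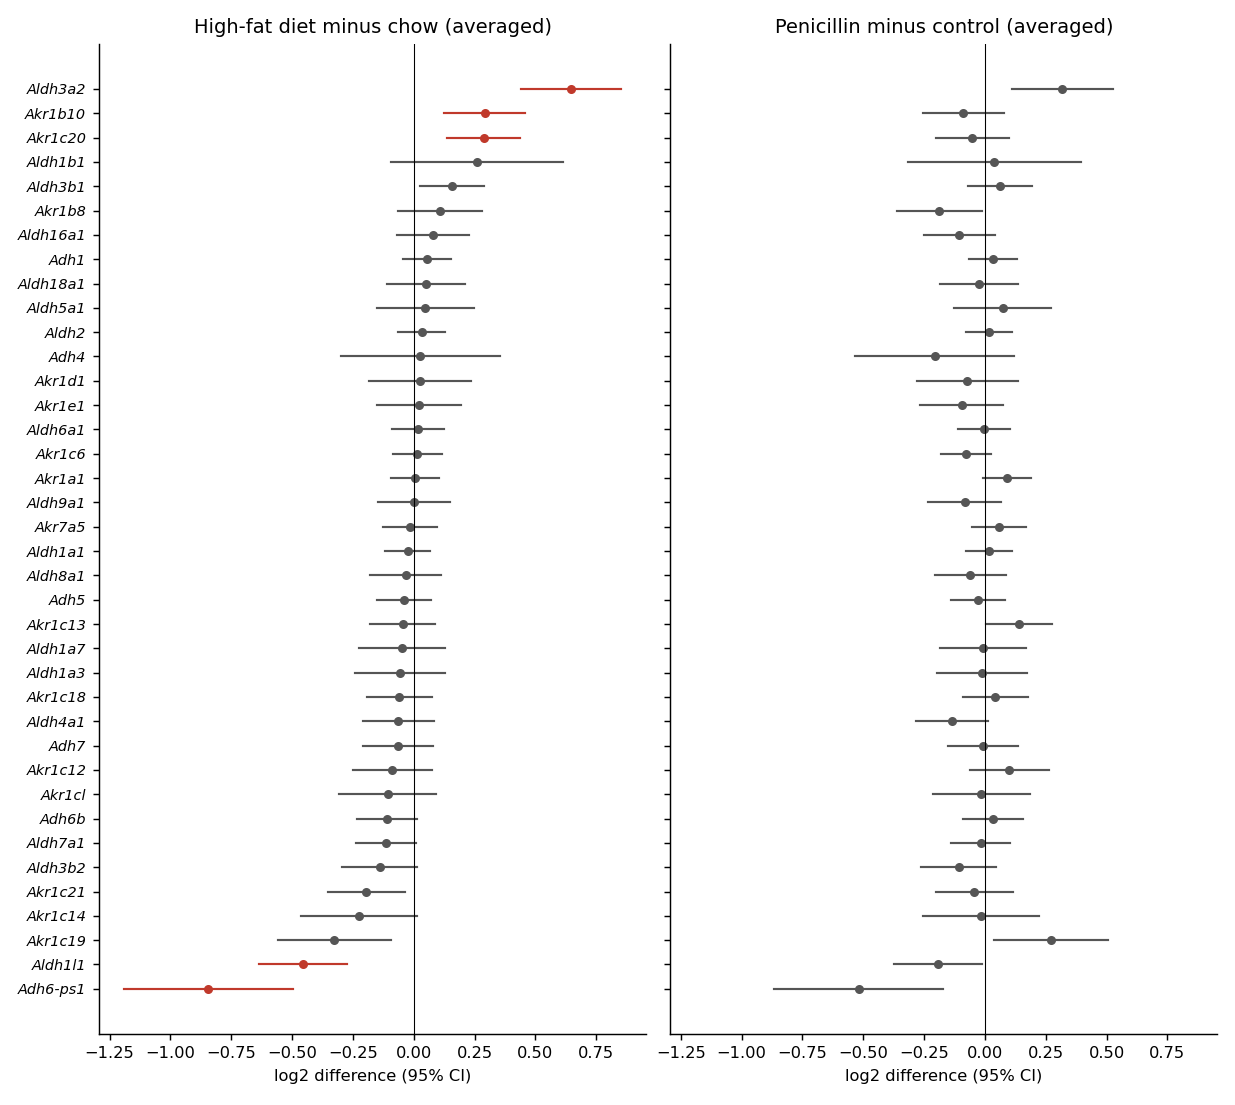
Averaged log2 difference of each of the 38 tested members, with 95% confidence intervals, for high-fat minus chow (left) and penicillin minus control (right), with members past the threshold in red. For diet, Aldh3a2 (0.65) and Adh6-ps1 (-0.85) lie farthest from zero, and for penicillin no member passed the threshold.

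The diet comparison was also made in each treatment. In control mice none of the 38 members was called by limma, against 0.653% of all genes higher and 0.247% lower. At an unadjusted p under 0.05 there were 7 of 38 (18.4%), against 15.1% of all genes. In penicillin mice Aldh3a2 and Akr1c20 rose and Aldh1l1 and Adh6-ps1 fell, which is 5.26% in each direction, against 6.43% of all genes higher and 1.89% lower. At an unadjusted p under 0.05 there were 5 of 38 (13.2%), against 24.5% of all genes. The members' median difference was -0.06 in control mice and 0.01 in penicillin mice, where that of all genes was -0.00 and -0.01. The 2 comparisons use different mice. That a member passed in one and not the other does not show that diet acted differently, and the test of that difference is the interaction.

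No member passed the interaction test, where 0.0363% of all genes were called higher and 0.00725% lower. At an unadjusted p under 0.05 there were 6 of 38 (15.8%), against 6.11% of all genes. These were Adh6-ps1 (-0.87 ± 0.32, adjusted p 0.724), Aldh3a2 (0.49 ± 0.19, adjusted p 0.748), Akr1c20 (0.38 ± 0.14), Akr1c21 (0.41 ± 0.15), Aldh1a1 (0.22 ± 0.09) and Aldh1a7 (0.38 ± 0.16). The smallest adjusted p among the members was 0.717. The widest of their 95% intervals reached 1.56 from zero, and 25 of the 38 stayed within 0.5.

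**Figure D4:**
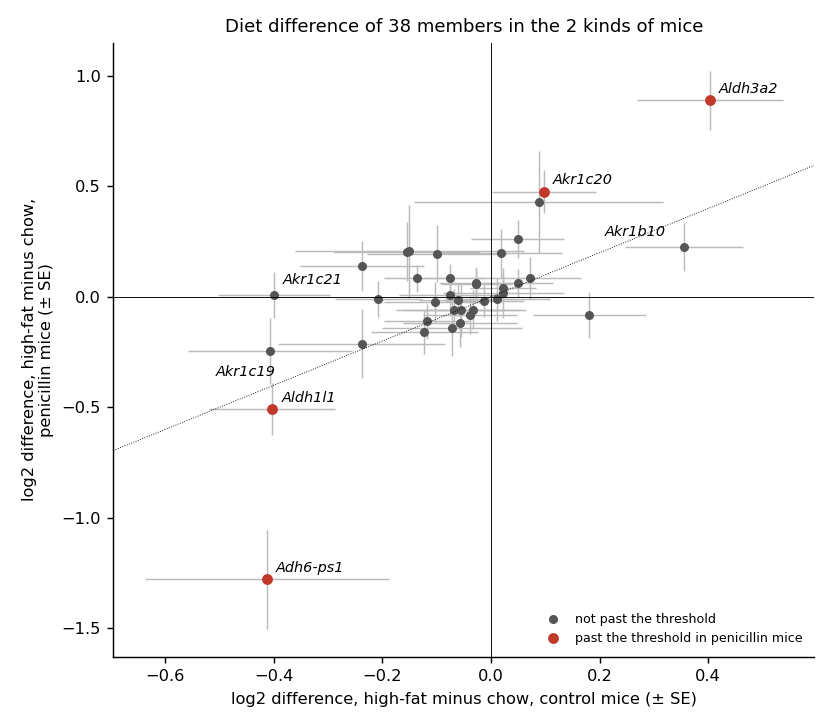
Log2 difference between high-fat and chow in control mice (horizontal axis) against that in penicillin mice (vertical axis), with 1 point per member (38), bars of ± 1 SE and a dotted line of equal differences. Aldh3a2 (0.40 and 0.89) and Adh6-ps1 (-0.41 and -1.28) lie off the line, and neither passed the interaction test.

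Penicillin gave no call among the members on either diet. On chow 0 of 38 were called by limma, against 0.00725% of all genes higher and 0% lower, and 3 of 38 (7.89%) had an unadjusted p under 0.05 against 7.62% of all genes. Those 3 were Akr1b8 (-0.28 ± 0.11), Akr1c20 (-0.24 ± 0.10) and Akr1c21 (-0.25 ± 0.10), each with an adjusted p of 0.618. The groups did not overlap for Akr1b8 and Akr1c20 and did for Akr1c21. On the high-fat diet 0 of 38 were called, against 0.254% of all genes higher and 0.087% lower, and 4 of 38 (10.5%) had an unadjusted p under 0.05 against 10.1% of all genes. They were Aldh3a2 (0.56 ± 0.13, adjusted p 0.122), Adh6-ps1 (-0.95 ± 0.22, adjusted p 0.12), Akr1a1 (0.17 ± 0.06, adjusted p 0.374) and Akr1c19 (0.35 ± 0.15, adjusted p 0.453). The groups of all 4 did not overlap. The members named on both diets were picked by unadjusted p, so the lack of overlap is not separate support. The share of all genes whose groups did not overlap is not given here. With both diets averaged, 0 of 38 were called, against 0.102% of all genes higher and 0.0435% lower, and 6 of 38 (15.8%) had an unadjusted p under 0.05 against 11.9% of all genes. The members' median difference was -0.06 on chow, 0.02 on the high-fat diet and -0.01 averaged, beside -0.01, -0.00 and -0.00 over all genes. With array weights Aldh3a2 and Adh6-ps1 passed for penicillin on the high-fat diet, while the number of all genes called in that comparison went from 47 to 183. Without the 3 arrays of low 18S signal Aldh3a2 passed there, and all genes called were 148. Without those arrays Adh4 and Akr1d1 passed for penicillin on chow, and all genes called went from 1 to 251, where penicillin chow 1 alone then stood for its group.

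Penicillin chow 1 held the lowest of the 12 values for 16 of the 38 members (42.1%), against 16.0% of all genes tested. The 16 were Adh4, Adh5, Akr1b10, Akr1c20, Akr1c6, Akr1d1, Akr1e1, Aldh16a1, Aldh1b1, Aldh2, Aldh3a2, Aldh5a1, Aldh6a1, Aldh7a1, Aldh8a1 and Aldh9a1. Aldh1b1 read 8.20 there and 8.75 to 9.46 on the other arrays, and Akr1d1 read 10.27 and 10.63 to 11.04. This was the array with the highest acute-phase and neutrophil levels, whose part in the members' values was not tested. Without it the members' median penicillin difference on chow moved from -0.06 to -0.00. Control chow 1 held the highest value for 11 of the 38 (28.9%), against 7.85% of all genes.

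**Figure D5:**
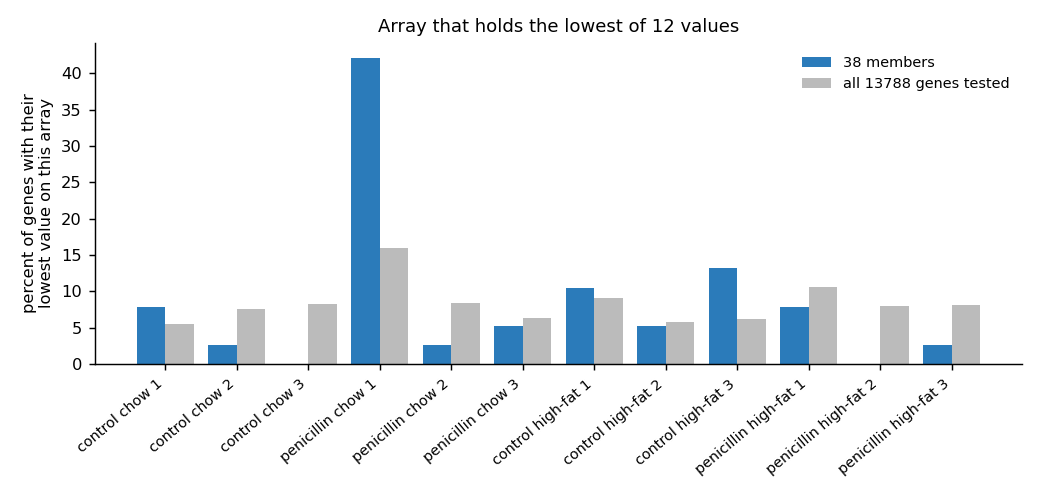
Percent of the 38 tested members (blue bars) and of all 13788 genes tested (grey bars) whose lowest value of 12 lay on each array. Penicillin chow 1 held the lowest value of 42.1% of members and 16.0% of all genes.

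Genes that work beside the members were read from 7 lists. Of 16 tested PPAR alpha targets, mostly genes of fatty acid oxidation, 11 rose with diet averaged over treatments and none fell, with a median difference of 0.36. The examples with the smallest p were Vnn1 (1.52), Acot2 (0.51), Ech1 (0.39) and Fgf21 (1.94). Of 16 other carbonyl oxidoreductases, which reduce or oxidise similar carbonyl groups, 5 rose, among them Dhrs7 (0.70), Dhrs7b (0.38) and Cbr4 (0.31). Of 26 retinoid genes 4 rose, Rdh16 (0.94), Rdh9 (0.76), Lrat (0.71) and Dhrs4 (0.25), of which Lrat is also a stellate cell marker and Dhrs4 is also in the carbonyl list. Of 20 steroid and bile acid enzymes 4 rose and 3 fell, including Cyp39a1 (1.19), Cyp7b1 (-1.16), Hsd3b5 (-2.21) and Amacr (-0.28). Hsd3b5 had group means of 12.88 in control chow, 12.48 in penicillin chow, 12.39 in control high-fat and 8.56 in penicillin high-fat mice, so its averaged value came mostly from penicillin mice (-3.92, adjusted p 0.00118). Of 18 NRF2 targets, genes of antioxidant and detoxifying enzymes, 4 rose and 5 fell, among them Me1 (0.95), Pgd (0.47), Gstm3 (-0.94) and Osgin1 (-0.99). Of 23 amino acid, choline and folate genes Prodh2 rose (0.31) while Sardh (-0.18) and Abat (-0.29) fell. With penicillin on the high-fat diet, all 18 NRF2 targets had positive differences (median 0.52), and Nqo1 (0.84) and Gstm3 (1.44) rose. Gstm3 had fallen with diet in control mice (-1.71, adjusted p 0.00422), and its group means were 11.56 in control chow, 11.48 in penicillin chow, 9.86 in control high-fat and 11.30 in penicillin high-fat mice. In the same comparison Acot2 rose (0.61), and Hsd3b5 (-3.83) and Cyp7b1 (-0.79) fell, beside 0.254% of all genes called higher and 0.087% lower. With diet averaged over treatments, none of the 4 tested ethanol and acetate genes was called by limma. Of these, 1 had an unadjusted p under 0.05, against 30.1% of all genes. For averaged diet each count stands beside the 9.63% of all genes called higher and the 4.85% called lower. The lists were chosen with results of these data known.

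Markers of other liver cells also moved with diet averaged over treatments, where 9.63% of all genes were called higher and 4.85% lower. Of 13 macrophage markers 11 rose (median 0.68), of 12 sinusoidal endothelial markers 7 rose (0.30), and of 14 stellate cell and fibroblast markers 9 rose (0.38). The mean macrophage level was 8.55 to 9.38 on chow arrays and 9.24 to 9.88 on high-fat arrays, and the stellate cell level was 7.99 to 8.37 on chow and 8.45 to 8.79 on the high-fat diet. Of 10 hepatocyte markers none rose and 1 fell. Of 11 pericentral hepatocyte markers 2 fell (median -0.28), and of 10 periportal markers 3 rose and 2 fell (median 0.21). None of the 4 neutrophil, 5 lymphocyte, 5 cholangiocyte, 4 adrenal or 4 pancreatic markers tested was called by limma. Of these, 0, 2, 3, 0 and 1 had an unadjusted p under 0.05, against 30.1% of all genes. Of 3 adipocyte markers 1 rose and 1 fell, and Adipoq and Lep were below the filter. In control mice no macrophage, endothelial or stellate cell marker was called (medians 0.52, 0.20 and 0.11), against 0.653% of all genes higher. In penicillin mice 9, 5 and 8 of them rose (medians 0.80, 0.41 and 0.52), against 6.43% of all genes. Against control chow, the median differences in penicillin chow mice were -0.53, -0.24 and -0.37, and no marker was called by limma. Of these markers 11, 5 and 8 had an unadjusted p under 0.05, against 7.62% of all genes. Mean macrophage levels were 9.18, 8.76 and 8.55 on penicillin chow 1, 2 and 3 (9.23 to 9.38 in control chow). Endothelial levels were 8.39, 8.06 and 8.04 (8.28 to 8.44), and stellate cell levels 8.08, 7.99 and 8.21 (8.32 to 8.37). Penicillin chow 2 and 3 had low ribosomal RNA signal, whose part in the marker differences was not tested. The part of these cell types in the members' diet differences was not tested. In bulk liver, fewer cells of a type and less RNA per cell cannot be told apart.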

How the data were processed

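The deposited table held log2 expression values that the authors had made with RMA (affy), per the submitters' processing notes, for 45101 probe sets on 12 arrays. The version of affy is not stated there. From it, the 34945 probe sets with 1 symbol were reduced to the highest-mean probe set per gene (932 with several symbols left out), the filter described was applied, and limma 3.58.1 in R 4.3.3 was fitted with 4 group means over 12 arrays (8 residual degrees of freedom). Tables and figures used Python 3.11.15. Adjustment was Benjamini-Hochberg over 13788 genes. The median SE between 2 groups was 0.10 and of the interaction 0.15, and the small number of arrays limits the precision. The fit was tested on simulated data. Alternatives changed the filter, probe set choice, scaling, variance model, arrays used and blocks. RefSeq matched all 42 members by gene identifier.

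Members called, or with an unadjusted p under 0.01 in a contrast, and the 3 of highest mean are given on every array. Listed pathway genes are named for averaged diet and for penicillin on the high-fat diet when called, at most 4 per list by smallest p. Members and lists were chosen with earlier results of these data known, so no list count is independent support. Intensities of bright probe sets can be compressed on arrays, and their differences may be understated.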

Additional observations from a re-analysis of the deposited data

Results flagged for a closer look

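A second Akr1c20 probe set, outside the tested values, also rose with diet. Its averaged difference was 0.643 (adjusted p 0.0042 by limma over all probe sets that passed the filter) and its difference in penicillin mice was 0.794 (adjusted p 0.0131). Both exceeded those of the brighter probe set, 0.29 and 0.48.

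A dimmer Aldh2 probe set had a diet difference of 0.248 averaged (adjusted p 0.0367) and 0.453 in penicillin mice (adjusted p 0.019). The brightest Aldh2 probe set differed by 0.03 averaged, and another gave -0.31 (adjusted p 0.0692), so the Aldh2 probe sets disagree.

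A probe set shared by Aldh3b2 and Aldh3b3, left out for its several symbols, fell by 0.229 with diet averaged over treatments (adjusted p 0.0401). Its values lay between 4.65 and 5.16, about the filter value, and it cannot be assigned to 1 of the 2 genes.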

How the results depend on the processing

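The 5 members called for averaged diet and the 4 called in penicillin mice kept their direction under every alternative in which they were tested. Akr1b10 was tested in 9, as it fell below the filter with the stricter filter and with the mean of its probe sets. Its other probe sets went the other way, so its kept direction holds for the brightest probe set only. The number called for penicillin on chow went from 0 to 2, for penicillin on the high-fat diet from 0 to 1, for penicillin averaged from 0 to 1 and for diet in penicillin mice from 4 to 7 without the 3 arrays of low 18S signal. All genes called in these 4 comparisons went from 1 to 251, 47 to 148, 20 to 416 and 1147 to 1112. With array weights penicillin on the high-fat diet went from 0 to 2 and diet in control mice from 0 to 1, while all genes called went from 47 to 183 and from 124 to 571. With only the arrays compared, diet in penicillin mice went from 4 to 2 (all genes from 1147 to 482), and with the mean of all probe sets averaged diet went from 5 to 3 (34 members tested; all genes from 1997 to 1802). Leaving out 1 array gave 0 to 1 for diet in control mice, where Akr1c21 passed without penicillin chow 1 (all genes from 124 to 303). The cause was not tested. With a replicate block 5 members were called for averaged diet and 4 in penicillin mice, as without it, and 0 in the other 5 comparisons. Same-numbered arrays deviated with mean correlations of -0.01, -0.01 and -0.02 for the 3 numbers, and the numbers were not taken as pairs.

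Without the 3 low-18S arrays Adh6-ps1 had -0.74 averaged and -1.07 in penicillin mice, and Akr1b10 had 0.33, and none passed the threshold. Aldh1l1 with the largest-variance probe set had -0.16 averaged and -0.36 in penicillin mice, and both calls were also lost with the mean of its probe sets. Akr1b10, Akr1c21 and Adh6b were read near the filter value.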
